A study of Mus musculus with 6 samples.

Results

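The SLC25 genes encode the carriers of the mitochondrial inner membrane, and their transcripts were described here in quadriceps muscle of male mice. The members are the protein-coding genes whose symbol is Slc25a followed by a number, which gave 47 of the 48795 genes counted. They were compared between MERKO mice, in which the estrogen receptor ERα (gene Esr1) was deleted in muscle, and wild-type controls, with 3 libraries per group. All animals were C57BL/6 males aged 20 weeks. The sources used here do not give the promoter that drove the deletion, nor whether a library came from 1 animal or from pooled animals. The p-values therefore measure only how much these libraries vary, which may be technical. The members were sorted into 11 classes, by known substrate where there is one, with classes of their own for relatives of the uncoupling proteins, an outer membrane protein and members of unclear substrate.

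The outer membrane of the mitochondrion lets small molecules through, whereas the inner membrane holds nearly all of them back. SLC25 proteins are the gates of that inner membrane: they exchange ADP for ATP, let in phosphate, and move keto acids, amino acids, acylcarnitines, cofactors and iron. In muscle the work load falls on the carriers that feed ATP synthesis, on those of the malate-aspartate shuttle, which brings the electrons of cytosolic NADH into the matrix, and on the carnitine carrier, which brings in fatty acids for oxidation.

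The libraries held between 15755947 and 26596608 counts in MERKO and between 14935532 and 44282448 in control. Their make-up was uneven: the rRNA model CT010467.1 held 6.19% to 32.4% of counts in MERKO and 0.0433% to 27.7% in control, and genes of mitochondrial DNA took 4.90% to 11.02% in MERKO and 6.68% to 10.6% in control. The 8 skeletal muscle markers summed to between 166298 and 294980 CPM in MERKO and between 183524 and 243467 CPM in control, where CPM are counts scaled by depth and by the composition factors of the fit. Tendon markers summed to 92.7 to 454 CPM in MERKO and 37.2 to 95.4 CPM in control, and Schwann cell markers to 39.6 to 62.3 CPM in MERKO and 27.6 to 36.7 CPM in control. Endothelial markers summed to 189.9 to 291 CPM in MERKO and 177 to 266 CPM in control, and macrophage markers to 102 to 138 CPM in MERKO and 104 to 184 CPM in control. Of these 4 lists 0 genes passed the threshold (edgeR), where 0.00734% of all genes did. Higher in MERKO were 9 of 10 tested tendon genes, 7 of 7 Schwann cell, 5 of 8 endothelial and 3 of 8 macrophage genes. The median log2 fold changes were 2.16, 0.52, 0.15 and -0.17 in that order. The groups did not overlap for 4, 3, 1 and 1 of these genes, against 13.3% of all genes. The part of these cell types in the carriers' values was not tested. Esr1, the targeted gene, stood at 6.75, 9.43 and 7.46 CPM in MERKO 1 to 3, against 25.1, 34.1 and 31.1 CPM in control 1 to 3. The groups did not overlap, and the log2 fold change of Esr1 was -1.95 (SE 0.16, adjusted p = 0.0262, edgeR quasi-likelihood test). That p rose to 0.102 without MERKO 1, 0.0576 without MERKO 2, 0.109 without control 2 and 0.0632 without control 3.

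The first question was which carriers quadriceps muscle transcribes. Slc25a4 (ENSMUSG00000031633.4, chromosome 8, 46206797 to 46211284, minus strand), which encodes the ADP/ATP carrier ANT1 of heart and skeletal muscle, stood far above the others. Positions are those of build GRCm38. Levels were compared between genes as CPM per kb, the CPM divided by the length of the gene's exons. Slc25a4 stood at 1128 ± 156 CPM per kb in MERKO and 1130 ± 219 in control (SD, n = 3 each). It alone made up 76.1% to 78.1% of the summed CPM per kb of the 47 members in the MERKO libraries and 76.6% to 77.8% in the control libraries. Over the 6 libraries it stood 14.4 times above the next in order. Both values depend on the length used. With the longest coding transcript in place of the union of exons, a check added after the data were seen, Slc25a4 stood 5.36 times above the next, Slc25a3, and held 68.7% of the family's sum.

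Behind Slc25a4 came the carriers of the malate-aspartate shuttle and of phosphate. Slc25a11, the exchanger of oxoglutarate for malate, stood at 79.4 ± 20.1 CPM per kb in MERKO and 77.4 ± 21.7 in control. Slc25a3, the phosphate carrier, stood at 74.6 ± 21.2 CPM per kb in MERKO and 74.8 ± 21.7 in control. The ranges of these neighbours over the 6 libraries overlapped. With the longest coding transcript Slc25a3 stood at 257 CPM per kb over the 6 libraries, 2.65 times above Slc25a11 at 97.1. Slc25a12, the aspartate-glutamate carrier of muscle and brain, followed at 45.4 ± 6.46 CPM per kb in MERKO and 45.5 ± 8.22 in control, below all libraries of Slc25a3. Slc25a5, Slc25a20, Slc25a25, Slc25a51, Slc25a46 and Slc25a39 completed the 10 most abundant at mean levels between 9.16 and 16.0 CPM per kb, and within these 6 the range of each over the libraries overlapped that of the next. The range of Slc25a39 lay above that of Slc25a44, the next in order. With the other gene length 9 of these 10 members stayed in the list.

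**Figure D1:**
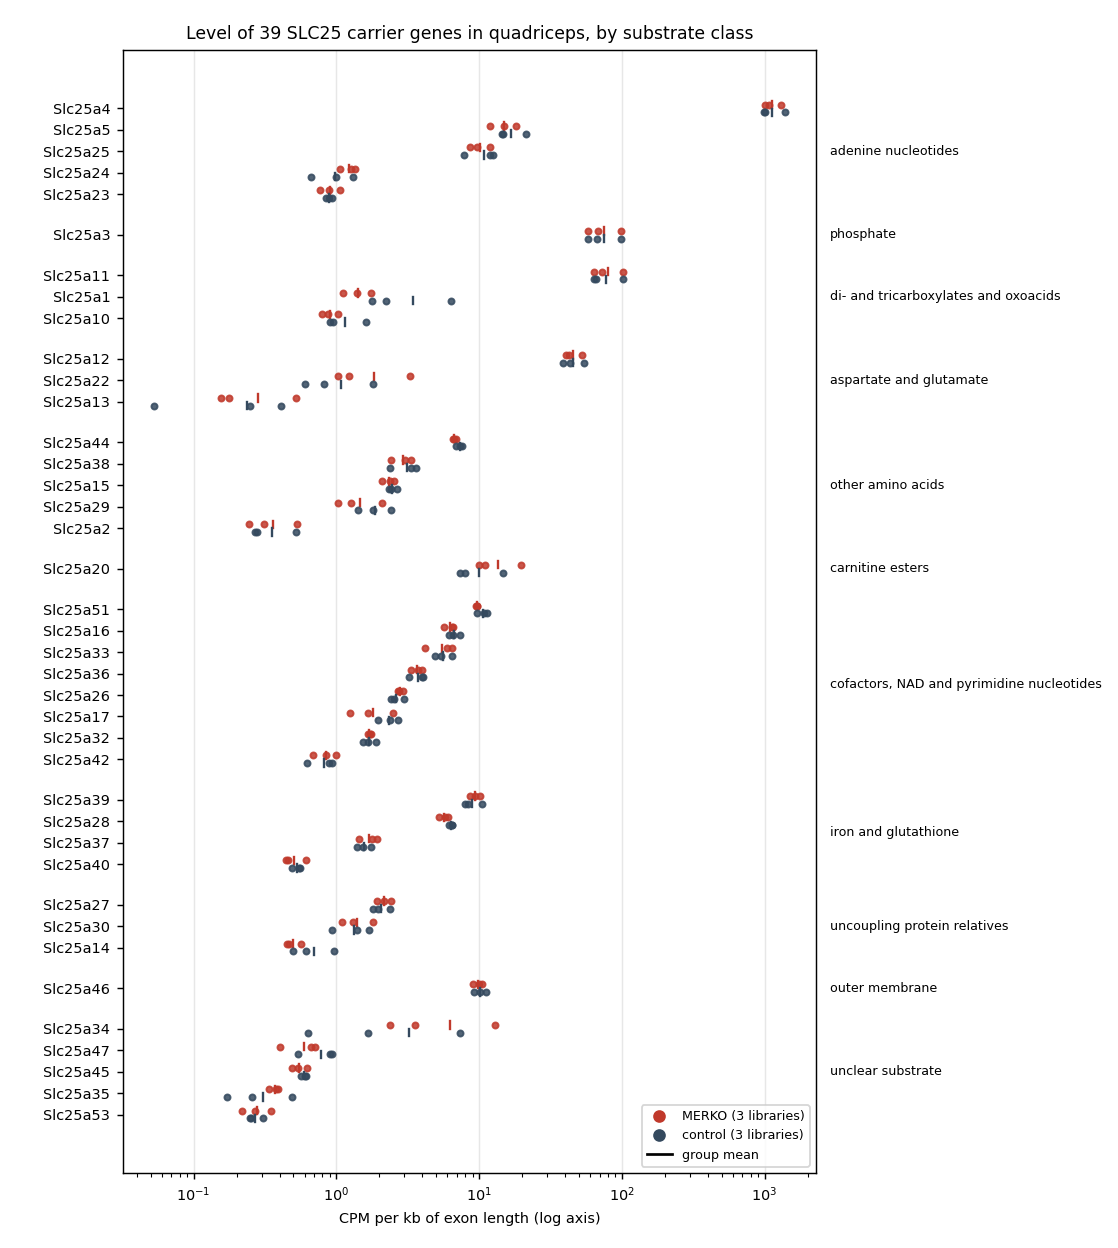
Level of 39 of the members that passed the filter on low counts, in CPM per kb of exon length on a log axis, with 1 point per library and a bar at the group mean, MERKO above control in each row and rows grouped by substrate class. Slc25a4 stands 14.4 times above the next carrier (5.36 times with the longest coding transcript as length), the MERKO and control means of most rows lie close together, and Slc25a34, Slc25a22, Slc25a13 and Slc25a1 show the widest spread between libraries of 1 group.

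At the other end, 7 genes of the family were at or near 0 in this muscle. Slc25a54 had 0 counts in all libraries, which allows at most 3 counts at the depths above, with counting error alone considered. Slc25a31, which encodes the ADP/ATP carrier of the testis, and Slc25a48 had 1 count each, in MERKO 1. Slc25a41, Slc25a43, Slc25a21 and Slc25a18 had at most 4 counts in any library. These 7 members were not tested.

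The comparison of MERKO with control asked whether any carrier differed with the loss of Esr1. None of the 40 tested members passed the threshold of 0.05 on the adjusted p (edgeR), where 0.00734% of all 13628 genes tested, that is Esr1 alone, were called. DESeq2 called 0 members and 0.165% of all genes, and limma-voom called 0 members and 0.00734%. Without a composition factor 0 members were called, against 0.682% of all genes. At an unadjusted p under 0.05 (edgeR) there was 1 member, Slc25a1, or 2.5%, against 7.04% of all genes. Higher in MERKO were 16 of the 40 members, or 40%, against 52.1% of all genes, and the median was -0.01 for the members and 0.01 for all genes on the log2 scale. Without a composition factor 8 members were higher, with the median of all genes at -0.10 and that of the members at -0.12. The lowest adjusted p of a member was 0.683.

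The intervals give the range of differences that the values of these libraries allow. For 23 of the 40 members the 95% interval of the fold change, not adjusted for the number of genes, lay wholly inside a 1.5-fold difference in either direction. This is 57.5%, against 54.1% of all genes tested. The narrowest interval was that of Slc25a44 (0.798 to 1.05 times control). For the other 17 members the interval reached beyond 1.5-fold, so a larger difference is not excluded. Whether a difference of 1.5-fold would pass the threshold on the adjusted p is not answered by these intervals. The groups did not overlap in CPM for 4 members, or 10%, against 13.3% of all genes. MERKO lay above control in 0 members, against 6.17% of all genes, and below it in 4, against 7.1%: Slc25a1, Slc25a51, Slc25a28 and Slc25a44.

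**Figure D2:**
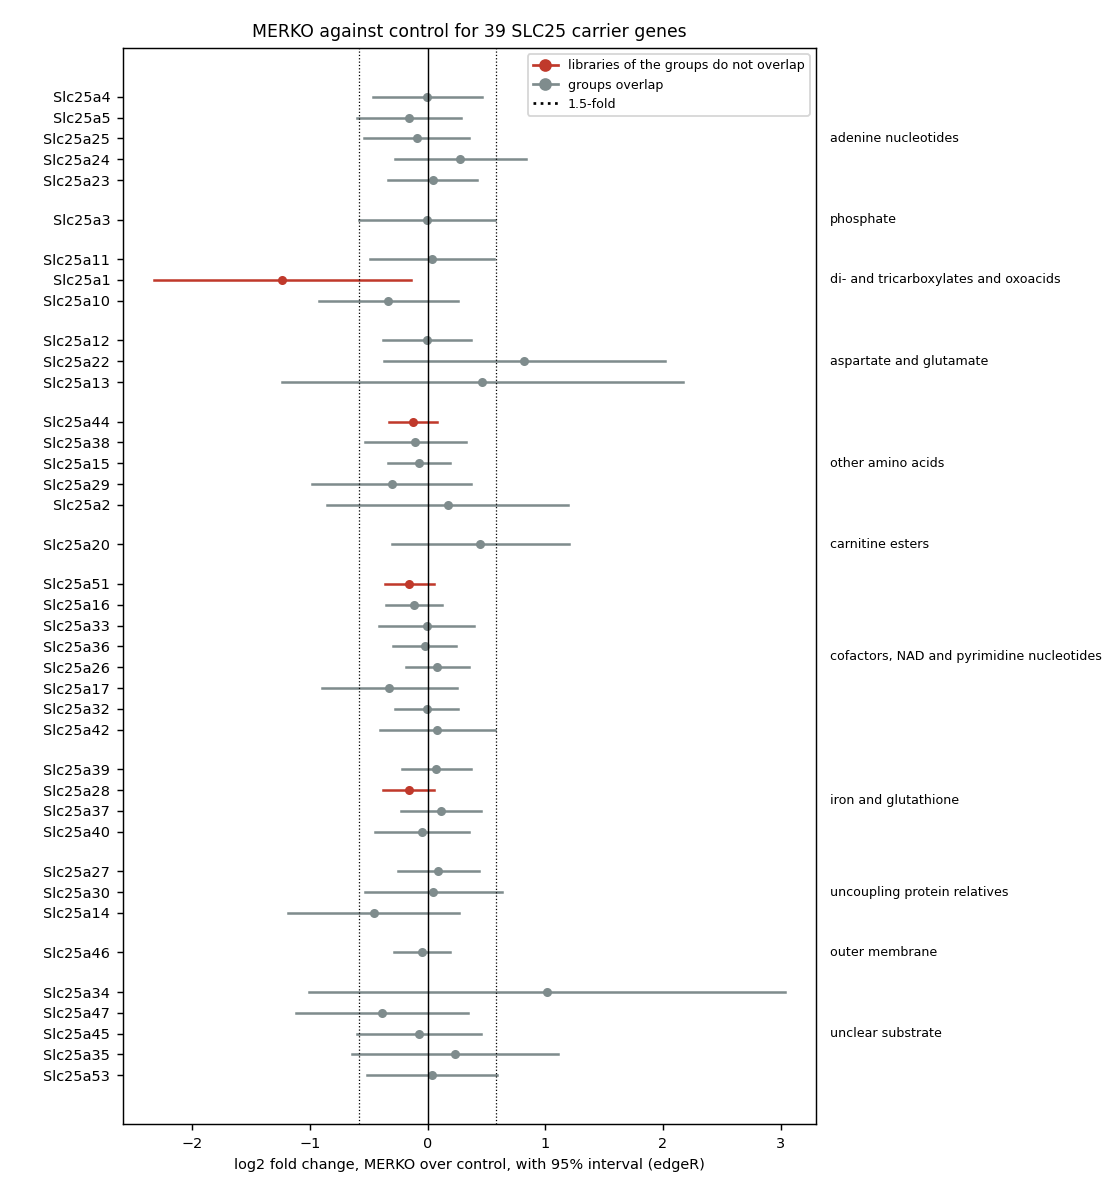
Log2 fold change of MERKO over control for 39 of the tested members with its 95% interval, grouped by substrate class; the dotted lines mark a 1.5-fold difference and red marks members whose libraries do not overlap between groups. The intervals of 38 members include 0, that of Slc25a1 runs from -2.32 to -0.15, and none of the 39 passed the threshold after adjustment.

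The adenine nucleotide carriers held 77.8% to 80.0% of the family's summed CPM per kb in MERKO and 78.5% to 80.0% in control. Slc25a4 had 3069, 2375 and 2517 CPM in MERKO 1 to 3, against 3253, 2336 and 2385 CPM in control 1 to 3. The first library was the highest in both groups and the groups overlapped throughout. The log2 fold change was -0.0023 (95% interval -0.46 to 0.46, adjusted p = 0.998, edgeR). Slc25a5, the ADP/ATP carrier ANT2 of dividing and many other cells, had 30.0, 19.6 and 24.8 CPM in MERKO 1 to 3, against 35.0, 23.9 and 24.4 CPM in control 1 to 3. These values overlapped as well (log2 fold change -0.16, -0.60 to 0.29, adjusted p = 0.870, edgeR). Per kb, Slc25a4 exceeded Slc25a5 by 71.7, 84.7 and 71.0 times in MERKO 1 to 3, against 65.0, 68.4 and 68.4 times in control 1 to 3. This ratio was higher in every MERKO library than in any control library, in 1 of the 7 pairs of carriers for the same substrate that were examined, and it was not tested.

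Slc25a25, Slc25a24 and Slc25a23 exchange ATP-Mg for phosphate and are switched on by calcium. Slc25a25 was the most abundant of them, with 67.6, 76.5 and 94.5 CPM in MERKO 1 to 3, against 94.5, 61.4 and 97.9 CPM in control 1 to 3. High and low libraries occurred in both groups (log2 fold change -0.09, -0.54 to 0.35, adjusted p = 0.928, edgeR). Slc25a24 and Slc25a23 averaged 4.21 ± 0.54 and 4.80 ± 0.81 CPM in MERKO, against 3.39 ± 1.09 and 4.71 ± 0.23 CPM in control (SD, n = 3 each). Their log2 fold changes were 0.28 (-0.28 to 0.83) and 0.04 (-0.34 to 0.42). Of the 5 tested members of the class 2 were higher, 3 lower and 0 passed.

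The phosphate carrier supplies the other substrate of ATP synthase. Slc25a3 had 546, 320 and 375 CPM in MERKO 1 to 3, against 551, 372 and 323 CPM in control 1 to 3. Here too the first library of each group was the highest, while the means were 414 ± 118 CPM in MERKO and 415 ± 120.2 CPM in control. The log2 fold change was -0.0046 (-0.58 to 0.57, adjusted p = 0.997, edgeR).

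Of the carriers of di- and tricarboxylates, Slc25a1 (ENSMUSG00000003528.14, chromosome 16, 17925223 to 17928219, minus strand) had the lowest p of the family. It exports citrate, from which the cytosolic enzyme ATP citrate lyase (Acly) makes acetyl-CoA for lipid synthesis. Slc25a1 had 2.40, 3.03 and 3.80 CPM in MERKO 1 to 3, against 3.82, 13.8 and 4.85 CPM in control 1 to 3. Control 2 stood far above the other 5 libraries, and the highest MERKO library lay just under the lowest control library. The log2 fold change was -1.23 (-2.32 to -0.15, adjusted p = 0.683, edgeR), and without control 2 it was -0.51 (adjusted p = 0.788, edgeR). Over all alternatives its adjusted p lay between 0.0564 and 0.999. Slc25a10, the dicarboxylate carrier, had 3.04, 3.54 and 2.74 CPM in MERKO 1 to 3, against 3.11, 5.60 and 3.27 CPM in control 1 to 3. Control 2 was again the highest while the other libraries overlapped. The log2 fold change of -0.33 (-0.92 to 0.26, adjusted p = 0.790, edgeR) was -0.05 without control 2.

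Adipocyte markers were also highest in control 2. The 14 genes of that list, all detected, summed to 161, 140 and 177 CPM in MERKO 1 to 3 and to 184, 604 and 263 CPM in control 1 to 3, and all 12 tested members were lower in MERKO with 0 past the threshold. Acly had 16.8, 16.4 and 14.8 CPM in MERKO 1 to 3, against 18.3, 63.4 and 20.8 CPM in control 1 to 3, the same order of libraries within control as for Slc25a1. Within MERKO the order of Acly was the reverse of that of Slc25a1, and the adipocyte sum followed neither. The part of fat cells in the values of Slc25a1 and Slc25a10 was not tested, and in whole muscle fewer cells of a type and less RNA per cell cannot be told apart. Slc25a11, the oxoglutarate carrier, did not show this pattern. It had 216, 135 and 154 CPM in MERKO 1 to 3, against 217, 140 and 135 CPM in control 1 to 3 (log2 fold change 0.04, -0.49 to 0.57, adjusted p = 0.976, edgeR).

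**Figure D3:**
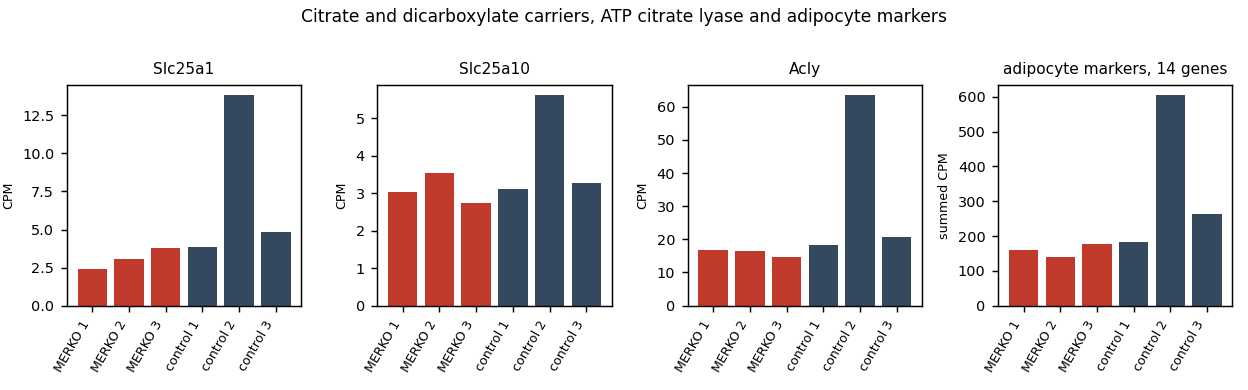
CPM in each of the 6 libraries for the citrate carrier Slc25a1, the dicarboxylate carrier Slc25a10 and ATP citrate lyase (Acly), and the summed CPM of 14 adipocyte markers, MERKO in red and control in dark blue, each axis starting at 0. Control 2 is the highest bar in all 4 panels, at 13.8 CPM for Slc25a1 and 604 CPM for the adipocyte markers.

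The aspartate and glutamate carriers differed sharply in how even their libraries were. Slc25a12, which is activated by calcium and completes the malate-aspartate shuttle, had 387, 299 and 313 CPM in MERKO 1 to 3, against 401, 317 and 284 CPM in control 1 to 3. The groups overlapped and the log2 fold change was -0.0029 (-0.38 to 0.37, adjusted p = 0.997, edgeR). Slc25a22, a glutamate carrier, had 19.6, 6.15 and 7.36 CPM in MERKO 1 to 3, against 10.8, 4.89 and 3.62 CPM in control 1 to 3. The first library of each group was the highest, and the log2 fold change of 0.82 (-0.37 to 2.01, adjusted p = 0.740, edgeR) was 0.08 without MERKO 1 and 1.45 without control 1. Without both of these libraries it was 0.72 (0.22 to 1.22, adjusted p = 0.452, edgeR). Slc25a13, the liver counterpart of Slc25a12, was named after its values were seen: it had 65, 7 and 14 counts in MERKO 1 to 3 and 37, 12 and 11 counts in control 1 to 3. Its log2 fold change of 0.47 (-1.24 to 2.17, adjusted p = 0.901, edgeR) became -0.40 without MERKO 1 and -0.15 without control 3.

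Slc25a20 and Slc25a34 shared this arrangement. Slc25a20 (ENSMUSG00000032602.6, chromosome 9, 108662088 to 108684641, plus strand) carries acylcarnitines inward in exchange for carnitine, the step that admits long-chain fatty acids to β-oxidation. It had 95.96, 48.6 and 53.5 CPM in MERKO 1 to 3, against 71.7, 38.4 and 35.4 CPM in control 1 to 3. The first library was the highest in both groups, and MERKO 2 and 3 lay between control 1 and the other controls. The log2 fold change was 0.45 (-0.31 to 1.20, adjusted p = 0.775, edgeR), 0.07 without MERKO 1 and 0.85 without control 1. Without both of these libraries it was 0.47 (0.22 to 0.73, adjusted p = 0.310, edgeR). Slc25a34 (ENSMUSG00000040740.7, chromosome 4, 141618824 to 141623821, minus strand), whose substrate is not settled, had 34.5, 6.40 and 9.53 CPM in MERKO 1 to 3, against 19.6, 4.42 and 1.69 CPM in control 1 to 3. It was the most uneven member, 5.38 times higher in MERKO 1 than in the lowest MERKO library and 11.6 times higher in control 1 than in the lowest control library. Its log2 fold change of 1.01 (-1.01 to 3.03, adjusted p = 0.814, edgeR) was -0.08 without MERKO 1 and 2.67 without control 1. Leaving out both of these libraries gave 1.59 (0.68 to 2.51, adjusted p = 0.331, edgeR).

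Slow-fibre genes had the same high libraries. The 9 slow-fibre markers, which include the slow myosin Myh7, summed to 599, 59.8 and 71.1 CPM in MERKO 1 to 3, against 622, 71.6 and 72.0 CPM in control 1 to 3. The 10 fast-fibre markers summed to 93913, 140982 and 134103 CPM in MERKO 1 to 3 and to 115900, 135291 and 131389 CPM in control 1 to 3, with the first library lowest in each group. The first library was the highest of its group, in both groups at once, for 21 of the 40 tested carriers, or 52.5%, against 18.9% of all genes tested. In 7 of these members the highest library exceeded the lowest more than 1.5-fold in both groups: Slc25a34, Slc25a13, Slc25a22, Slc25a20, Slc25a3, Slc25a29 and Slc25a11. The part of slow fibres in these values was not tested.

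**Figure D4:**
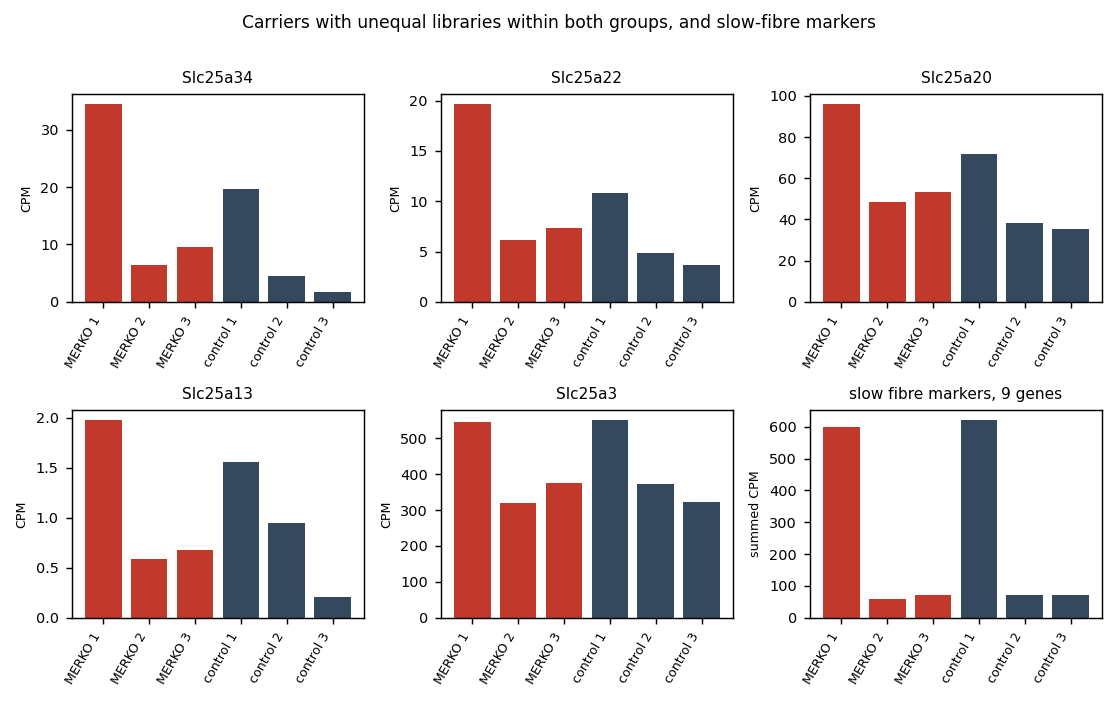
CPM in each of the 6 libraries for Slc25a34, Slc25a22, Slc25a20, Slc25a13 and Slc25a3, and the summed CPM of 9 slow-fibre markers, MERKO in red and control in dark blue, each axis starting at 0. MERKO 1 and control 1 are the highest libraries of their groups in all 6 panels, at 599 and 622 CPM for the slow-fibre markers.

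Promoter sequences are shown for Slc25a34 and Slc25a20, whose libraries moved together, and for Slc25a4, the dominant carrier. Each is the 250 bases before the RefSeq transcription start, on the strand of the gene, in build GRCm38.p6. The gene positions given above are those of GENCODE, whose starts differ from these. Most of the window of Slc25a4 and the end of that of Slc25a20 lie inside the GENCODE gene. Capitals mark the match to AAGGTCA, a motif bound by estrogen-related receptors and other orphan nuclear receptors; it reads TGACCTT where the match is on the opposite strand.
Slc25a34, chr4:141623835-141624084, minus strand: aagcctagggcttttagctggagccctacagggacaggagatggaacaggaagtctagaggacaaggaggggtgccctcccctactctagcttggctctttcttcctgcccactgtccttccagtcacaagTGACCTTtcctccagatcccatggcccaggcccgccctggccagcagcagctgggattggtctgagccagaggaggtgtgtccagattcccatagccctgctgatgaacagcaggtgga
Slc25a20, chr9:108661886-108662135, plus strand: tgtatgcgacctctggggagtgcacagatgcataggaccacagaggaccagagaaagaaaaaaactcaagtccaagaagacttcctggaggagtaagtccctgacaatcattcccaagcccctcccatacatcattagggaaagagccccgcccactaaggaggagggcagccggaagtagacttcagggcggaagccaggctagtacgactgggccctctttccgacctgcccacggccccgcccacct
Slc25a4, chr8:46211063-46211312, minus strand: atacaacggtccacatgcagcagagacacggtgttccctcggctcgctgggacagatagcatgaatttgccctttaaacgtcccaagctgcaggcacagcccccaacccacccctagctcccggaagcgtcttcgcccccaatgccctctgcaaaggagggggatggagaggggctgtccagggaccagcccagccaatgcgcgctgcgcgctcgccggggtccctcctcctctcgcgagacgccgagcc

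The 3 windows differed in their CpG dinucleotides, of which Slc25a34 had 1, Slc25a20 had 8 and Slc25a4 had 18. On both strands, AAGGTCA was found in 1 of the 46 windows of the 36 members with a RefSeq promoter, that of Slc25a34, where it lies 119 to 113 bases before the start. It was found in 4.08% of all 32851 windows. The longer TCAAGGTCA, which contains it, was in 0 member windows and 0.387% of all windows. The TATA box letters TATAAA were in 2 member windows, those of the barely detected Slc25a18 and Slc25a21, and in 12.4% of all windows. The estrogen response element was searched as AGGTCA followed by 3 bases of any kind and TGACC. This string was in 0 member windows and 0.0517% of all windows, and other forms of the element were not searched. A match is a description of letters, and its absence from these windows says nothing of the factor.

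The carriers of other amino acids stood at low to middling levels. Slc25a44, which imports branched-chain amino acids, had 23.9, 24.7 and 23.4 CPM in MERKO 1 to 3, against 24.7, 26.4 and 27.3 CPM in control 1 to 3. The groups did not overlap, although their nearest libraries were closer to each other than the libraries within either group were spread. The log2 fold change was -0.12 (-0.32 to 0.08, adjusted p = 0.764, edgeR). Slc25a38, which imports glycine for haem synthesis, Slc25a15, the main ornithine carrier, and Slc25a29, a carrier of basic amino acids, had log2 fold changes of -0.10, -0.08 and -0.31. Slc25a2, the ornithine carrier that resembles Slc25a15, had 4 to 15 counts in MERKO libraries and 9 to 20 in control libraries. Of the 5 members 1 was higher, 4 lower and 0 passed.

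The class of cofactor, NAD and nucleotide carriers had 2 members higher and 7 lower, with 0 past the threshold and a median log2 fold change of -0.03. Slc25a51, which imports NAD, had 53.3, 53.2 and 52.1 CPM in MERKO 1 to 3, against 59.99, 53.7 and 62.9 CPM in control 1 to 3. The MERKO libraries were nearly equal and lay below all controls, the nearest by less than 1 CPM (log2 fold change -0.16, -0.37 to 0.05, adjusted p = 0.716, edgeR). Slc25a17, which carries cofactors into peroxisomes, had 7.08, 3.54 and 4.76 CPM in MERKO 1 to 3, against 6.72, 7.73 and 5.57 CPM in control 1 to 3, with overlap. Its log2 fold change of -0.33 (-0.90 to 0.25, adjusted p = 0.787, edgeR) was -0.65 without MERKO 1 and -0.14 without MERKO 2. The carriers of coenzyme A (Slc25a16 and Slc25a42), S-adenosylmethionine (Slc25a26), folate or FAD (Slc25a32) and pyrimidine nucleotides (Slc25a33 and Slc25a36) had log2 fold changes between -0.11 and 0.08. For all 6 of these the 95% interval lay inside a 1.5-fold difference.

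Of the iron and glutathione carriers 2 were higher, 2 lower and 0 passed, and the intervals of all 4 lay inside a 1.5-fold difference. Slc25a28, the mitoferrin found in most tissues, had 22.6, 19.5 and 21.8 CPM in MERKO 1 to 3, against 24.4, 24.3 and 23.0 CPM in control 1 to 3. The groups did not overlap (log2 fold change -0.16, -0.38 to 0.06, adjusted p = 0.716, edgeR). Slc25a37, the mitoferrin of red cell precursors, averaged 10.3 ± 1.47 CPM in MERKO, against 9.38 ± 1.10 CPM in control (log2 fold change 0.12, adjusted p = 0.872, edgeR). Erythroid markers summed to 167 to 199.6 CPM in MERKO and 176 to 239 CPM in control. Slc25a39, a glutathione importer, had 28.1, 23.9 and 25.6 CPM in MERKO 1 to 3, against 28.9, 23.0 and 21.9 CPM in control 1 to 3. The groups overlapped (log2 fold change 0.08, -0.22 to 0.37, adjusted p = 0.908, edgeR). Its relative Slc25a40 averaged 4.25 ± 0.77 CPM in MERKO, against 4.45 ± 0.33 CPM in control.

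Slc25a27, Slc25a30 and Slc25a14 resemble the uncoupling proteins. Slc25a27 had 7.63, 9.51 and 8.47 CPM in MERKO 1 to 3, against 7.69, 9.39 and 7.09 CPM in control 1 to 3, with overlap (log2 fold change 0.09, -0.26 to 0.43, adjusted p = 0.907, edgeR). Slc25a14 had 1.06, 1.35 and 1.11 CPM in MERKO 1 to 3, against 1.18, 2.29 and 1.45 CPM in control 1 to 3. Control 2 was the highest, and the log2 fold change of -0.46 (-1.19 to 0.27, adjusted p = 0.757, edgeR) was -0.19 without control 2. Slc25a46 sits in the outer membrane and takes part in fusion, fission and lipid traffic. It had 57.3, 49.3 and 53.9 CPM in MERKO 1 to 3, against 60.3, 50.1 and 55.4 CPM in control 1 to 3, with overlap (log2 fold change -0.05, -0.29 to 0.19, adjusted p = 0.932, edgeR).

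Beside Slc25a34, 4 tested members have no settled substrate. Slc25a47 had 1.98, 2.10 and 1.20 CPM in MERKO 1 to 3, against 2.69, 2.76 and 1.60 CPM in control 1 to 3, with overlap. Its log2 fold change of -0.39 (-1.12 to 0.34, adjusted p = 0.803, edgeR) was -0.17 without MERKO 3 and -0.64 without control 3. Slc25a35, Slc25a45 and Slc25a53 stood between 0.631 and 2.78 CPM in all libraries, with log2 fold changes of 0.23, -0.08 and 0.04. Over the 19 tested members for which values per library are not listed, 9 were higher and 10 lower, with log2 fold changes between -0.31 and 0.28 and adjusted p-values between 0.814 and 0.995 (edgeR).

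The family members that carry other symbols were examined beside the Slc25a genes. Ucp3, the uncoupling protein of skeletal muscle, was singled out after its values were seen. It had 255, 175 and 246 CPM in MERKO 1 to 3, against 260, 168 and 159 CPM in control 1 to 3, with overlap (log2 fold change 0.21, -0.29 to 0.70, adjusted p = 0.849, edgeR). Ucp2 and Mtch2 had the lowest p of this list. Ucp2 had 6.90, 5.64 and 7.60 CPM in MERKO 1 to 3, against 5.50, 5.45 and 6.75 CPM in control 1 to 3, with overlap (log2 fold change 0.18, -0.18 to 0.55). Mtch2, an outer membrane protein, had 93.3, 87.5 and 79.3 CPM in MERKO 1 to 3, against 99.6, 87.7 and 91.2 CPM in control 1 to 3, with overlap (log2 fold change -0.10, -0.33 to 0.13). Ucp1, the protein of brown fat, had 4 counts in MERKO 1, 3 in control 2 and 0 in the other libraries. Of the 4 tested members, 3 were higher, 1 lower and 0 passed.

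Other transport proteins of mitochondria gave 16 members higher and 14 lower of 30 tested, with 0 past the threshold and a median log2 fold change of 0.02. The lowest p belonged to Sfxn1, a serine transporter, with 1.92, 1.94 and 2.02 CPM in MERKO 1 to 3, against 2.52, 3.39 and 2.65 CPM in control 1 to 3 (log2 fold change -0.52, -0.99 to -0.05, adjusted p = 0.683, edgeR). Next was Tspo, an outer membrane protein, with 5.47, 6.90 and 5.87 CPM in MERKO 1 to 3, against 6.34, 10.6 and 8.69 CPM in control 1 to 3 (-0.49, -0.94 to -0.03, adjusted p = 0.683, edgeR). The groups did not overlap for Sfxn1 and overlapped for Tspo. Cpt1b, which makes acylcarnitines in muscle and was singled out after its values were seen, had only 0.552 to 2.04 CPM over the 6 libraries. Gm44502 covers 81.4% of its exon bases in the annotation, and the sources used here do not say how reads of shared bases were counted. Of 25 tested enzymes that use carrier substrates, 15 were higher, 10 lower and 0 passed (median 0.06). The lowest p belonged to Acly, whose values are given above (log2 fold change -1.07, -2.07 to -0.08), and the malic enzyme Me1. Me1 had 55.5, 90.8 and 84.6 CPM in MERKO 1 to 3, against 75.95, 109 and 125 CPM in control 1 to 3, with overlap (log2 fold change -0.43, -0.94 to 0.09).

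The members lay on 19 chromosomes, and 4 pairs were neighbours within 20000 bases in GENCODE M21, build GRCm38. On chromosome 12, Slc25a29 (108825873 to 108835883, minus strand) and Slc25a47 (108836046 to 108856815, plus strand) point away from each other with 162 bases between them. Slc25a29 averaged 3.81 ± 1.42 CPM in MERKO, against 4.89 ± 1.299 CPM in control. The other pairs joined an expressed carrier to one at or near 0: Slc25a23 with Slc25a41 on chromosome 17, Slc25a24 with Slc25a54 on chromosome 3 and Slc25a5 with Slc25a43 on chromosome X. Without a known strand setting, reads of bases shared with a gene on the other strand cannot be told apart. Slc25a35 shares 1151 exon bases with Rangrf, Slc25a25 shares 379 with Naif1, Slc25a11 shares 189 with Rnf167 and Slc25a26 shares 144 with Lrig1. Over the 6 libraries Slc25a35 had 189 counts and Rangrf 2633, and Slc25a26 had 2015 counts and Lrig1 18356. The pseudogene Slc25a5-ps had 0 counts in all libraries, while other copies of the Slc25a5 sequence were not looked for.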

How the data were processed

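The authors deposited raw read counts per gene, 1 column per library, for quadriceps RNA of 3 MERKO and 3 control mice. Tools named in the submitters' processing notes are DESeq, HTSeq 0.9.1 and STAR 2.5.2b, and the builds are GRCm38 and mm10. The sources used here do not give the annotation, the strand setting or how shared reads were treated. Per the labels' protocols, a TruSeq RNA kit was used for the libraries. Groups and replicate numbers came from the sample titles.

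Of 48795 identifiers, 48435 matched a symbol and a GENCODE M21 gene; exon lengths are unions of its exons. The comparison used edgeR 4.0.16 (R 4.3.3, quasi-likelihood test) after filterByExpr (13628 genes) and TMM scaling, with genotype as the sole term. P-values were adjusted over those genes by the Benjamini-Hochberg method, and 0.05 was the threshold. The code was tested on simulated data. Alternatives used DESeq2 1.42.0, limma 3.58.1 (voom), other scalings, filters and priors, and left out libraries.

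The members, substrate classes and marker lists were chosen with earlier results of these data known. Values per library are given for the 10 most abundant members, the 10 with the lowest p, the most abundant of each class and all ADP/ATP carriers; of the companion lists, for the 2 with the lowest p. Slc25a13, Ucp3 and Cpt1b were added after their values were seen. All libraries differed by more than counting noise: chi-square over degrees of freedom was 109.6 or more between any 2 of the same group and 25.7 or more across groups. The values of 1 tested member are not reported here, though it is included in the counts and medians. Same-numbered libraries were not treated as pairs. Total counts of 14935532 to 44282448 set the precision; limits from counts cover counting error only, since reads without molecular identifiers are not independent molecules.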

Additional observations from a re-analysis of the deposited data

How the results depend on the processing

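No setting called an SLC25 carrier, among those listed in the description of the processing and those that left out libraries. The lowest adjusted p of a member in any setting was 0.0564 (Slc25a1, no composition factor, edgeR). The number of all genes called, 1 in the comparison as reported, was 23 with DESeq2, 93 without a composition factor, 140 without a filter and 51 with replicate number as a block, and between 0 and 11 when libraries were left out. Without a composition factor the median of all genes moved to -0.10 and that of the carriers to -0.12, so that the carriers stood at -0.02 relative to all genes, as in the comparison as reported. When libraries were left out the median of the carriers lay between -0.12 (without MERKO 1) and 0.037 (without control 1).

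Of 335 recomputed fold changes of 21 named members, 301 kept their direction and 34 changed sign, among them those of Slc25a34 without MERKO 1 and of Slc25a13 without MERKO 1 or control 3; the cause was not tested. Without a composition factor the log2 fold change was -0.022 for Slc25a11, -0.022 for Slc25a39 and -0.030 for Slc25a27. With the filter of 1 CPM in 3 libraries it was 0.0039 for Slc25a4, 0.0018 for Slc25a3 and 0.0033 for Slc25a12. With libraries left out, the range was -0.12 to 0.17 for Slc25a4, -0.18 to 0.29 for Slc25a11, -0.26 to 0.25 for Slc25a3, -0.13 to 0.15 for Slc25a12, -0.32 to 0.044 for Slc25a5, -0.27 to 0.096 for Slc25a25, -0.11 to 0.019 for Slc25a46, -0.0079 to 0.21 for Slc25a39, -0.0013 to 0.21 for Slc25a27, -0.078 to 2.67 for Slc25a34 and -0.40 to 1.35 for Slc25a13.

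The labels link samples of the same number only by that number. The deviations of same-numbered libraries correlated across genes at 0.448 for number 1, 0.163 for number 2 and 0.061 for number 3. MERKO 1 correlated at -0.268 with control 2 and at -0.224 with control 3. The deviations are from the mean of each group, so within a group they cancel for each gene. A positive correlation with a library therefore forces a negative one elsewhere in its group, and the negative values are not separate evidence on pairing. MERKO 2 and MERKO 3 each correlated best with a control of another number. With replicate number as a block 0 carriers passed (lowest adjusted p = 0.0744, Slc25a20, edgeR). The log2 fold change was then 0.0058 for Slc25a4 and 0.0029 for Slc25a12. The block called 0.374% of all genes, against 0.00734% without it (edgeR), so p-values fell beyond the carriers too. With the block, Slc25a20 stood at 0.45 (interval 0.27 to 0.64) and Slc25a22 at 0.79 (0.45 to 1.13). Slc25a34 stood at 1.28 (0.57 to 1.99) and Slc25a1 at -1.01 (-1.71 to -0.30). These intervals, not adjusted for the number of genes, excluded 0, while those of Slc25a13, Slc25a3 and Slc25a11 included 0. The share of all genes with such an interval under the block was not worked out, so nothing particular to the carriers is read from them. Depth limits tested members with few counts, such as Slc25a2 with 4 to 20 and Slc25a13 with 7 to 65 per library. It also limits the 7 members that were not tested.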
